A study of Mus musculus with 8 samples.

Results

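Hox cluster genes were followed in mouse bone marrow progenitors that had been transduced with KLF7 or with a control virus. The members were all genes whose only symbol in the platform annotation is Hox, a cluster letter from a to d and a number. There were 37 such genes among the 19938 genes measured: 10 of the Hoxa cluster and 9 each of the Hoxb, Hoxc and Hoxd clusters. Hoxb8 had no probe set of its own symbol and is not analysed here. Each of the 37 had 1 probe set.

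Hox genes encode homeodomain transcription factors that set position along the body axis of the embryo. They lie in clusters on separate chromosomes, in the order of their paralogue numbers, and genes of the same number in different clusters are close relatives. In blood formation Hoxa and Hoxb genes are used most in stem cells and early progenitors and are shut down as cells mature. Hox proteins bind DNA together with cofactors of the PBX and MEIS families.

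The cells came from the bone marrow of C57Bl/6 mice. Cells positive for the receptor c-Kit were transduced with lentivirus for the zinc finger factor KLF7 or with a control virus. After 72 hours cells without lineage markers that carried both c-Kit and Sca-1, the KLS fraction, were sorted. Stem cells and early progenitors are concentrated in it. The RNA was amplified before labelling, and 4 arrays are labelled KLF7 and 4 control. The sources used here do not give the insert of the control virus, the age of the mice or the share of sorted cells that were transduced. No label ties an array to its own culture or animal, so the p-values cover the spread between these arrays alone, which may be technical. Since whole sorts were measured, fewer cells of a type and less RNA per cell cannot be told apart.

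All levels below are log2 probe set intensities, and every difference is the mean of the KLF7 arrays minus the mean of the control arrays. Klf7 itself averaged 10.80 ± 0.55 on the KLF7 arrays and 9.04 ± 1.00 on the control arrays (SD, n = 4 each), with the control 2 array (10.28) above the KLF7 2 array (10.19). The difference was 1.76 (SE 0.46, limma adjusted p 0.327). Because of that overlap the groups are named by their labels. Array medians lay between 46.2 and 54.1 intensity units, and the number of arrays limits the precision of every difference.

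The sorted population carried markers of several cell types. Of 8 measured KLS progenitor markers 7 were above the background floor defined in the next paragraph, Kit and Cd34 among them, and Slamf1 was below it. All 8 averaged higher on the KLF7 arrays, by a median of 0.21. At a limma unadjusted p under 0.05 there were 0 of them, beside 8.21% of all genes. Of 12 monocyte, macrophage and dendritic cell markers 11 were higher on average on the KLF7 arrays, by a median of 0.74. Higher at a limma unadjusted p under 0.05 were 9 of the 12, beside 4.65% of all genes, and 0 passed the adjusted test. The mean of this list ran from 8.28 to 9.40 on the KLF7 arrays and from 7.34 to 8.54 on the control arrays, and 1 member, Clec9a, was below the floor. Of the 6 B cell markers measured 3 were below the floor, as were 3 of the 7 T and NK cell markers, and Ly6g was the 1 granulocyte marker of 10 below it.

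Most Hox genes were dim in these cells. A gene was marked dim when its mean over the 8 arrays was at or below 5.22, the 95th percentile of the same mean over 1015 olfactory receptor genes, which blood cells are not known to use. By this floor 26 of the 37 Hox genes were dim and 11 (29.7%) were above it, against 62.6% of all 19938 genes. Of the Hoxa genes 6 of 10 were above the floor: Hoxa4, Hoxa5, Hoxa6, Hoxa7, Hoxa9 and Hoxa10. Of the Hoxb genes 4 of 9 were above it, namely Hoxb1, Hoxb3, Hoxb4 and Hoxb7. Hoxd9 was the 1 Hoxd gene above it, and all 9 Hoxc genes were dim. Hoxa10 (5.223) and Hoxd9 (5.235) stood just inside the floor and Hoxb9 (5.08) just outside, and Hoxa10 and Hoxd9 were each above it on 4 of 8 arrays. With the floor at the 75th percentile of the olfactory receptor genes 7 Hox genes were dim, and with the median of all genes as the floor 32 were. Intensities of different probe sets were not set against each other in any other way.

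No Hox gene passed the test between the groups. In limma with Benjamini-Hochberg adjustment over 19938 genes 0 of 37 Hox genes passed an adjusted p of 0.05. Hoxa6 came nearest, at 0.656. Over all genes the share called was 0%. At an unadjusted p under 0.05 there were again 0 Hox genes, against 8.21% of all genes (4.65% higher and 3.56% lower). Dim genes, as 26 of the 37 are, reached that p less often. Of 7452 genes at or below the floor 164 were higher and 118 lower, against 764 and 591 of 12486 above it. The KLF7 and control arrays overlapped for each of the 37, whereas they did not overlap for 5.22% of all genes (2.83% higher and 2.38% lower). That was 183 of the 7452 genes at or below the floor and 857 of the 12486 above it. The count at an unadjusted p under 0.05 rested on single arrays: Hoxc8 reached it without KLF7 1, Hoxb6 without KLF7 2, Hoxc10 and Hoxc13 without KLF7 3, Hoxa7 and Hoxa9 without KLF7 4, Hoxa5 without control 2, and Hoxa6 and Hoxa7 without control 3. None of these passed the adjusted test in any setting that left out an array. Hoxa7 and Hoxa9 also reached the unadjusted threshold when the array numbers entered the fit as a block, without passing the adjusted test. That setting is given in the last section.

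The intervals bound the differences between these arrays, whose spread may be technical. The differences of the 37 genes ran from -0.50 (Hoxa9) to 0.32 (Hoxb6), with a median of -0.030 against 0.0019 over all genes. The standard errors ran from 0.10 to 0.34. For 36 of the 37 the 95% interval of the difference, not adjusted for the number of genes, lay inside a 2-fold change in either direction, and the exception was Hoxa9. Over all genes 88.6% of the intervals did so. The share was 97.9% for genes at or below the floor and 83.1% for genes above it. Among Hox genes it held for 26 of 26 dim genes and 10 of 11 above the floor. For the 26 dim Hox genes the interval bounds the change of a signal near background.

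**Figure D1:**
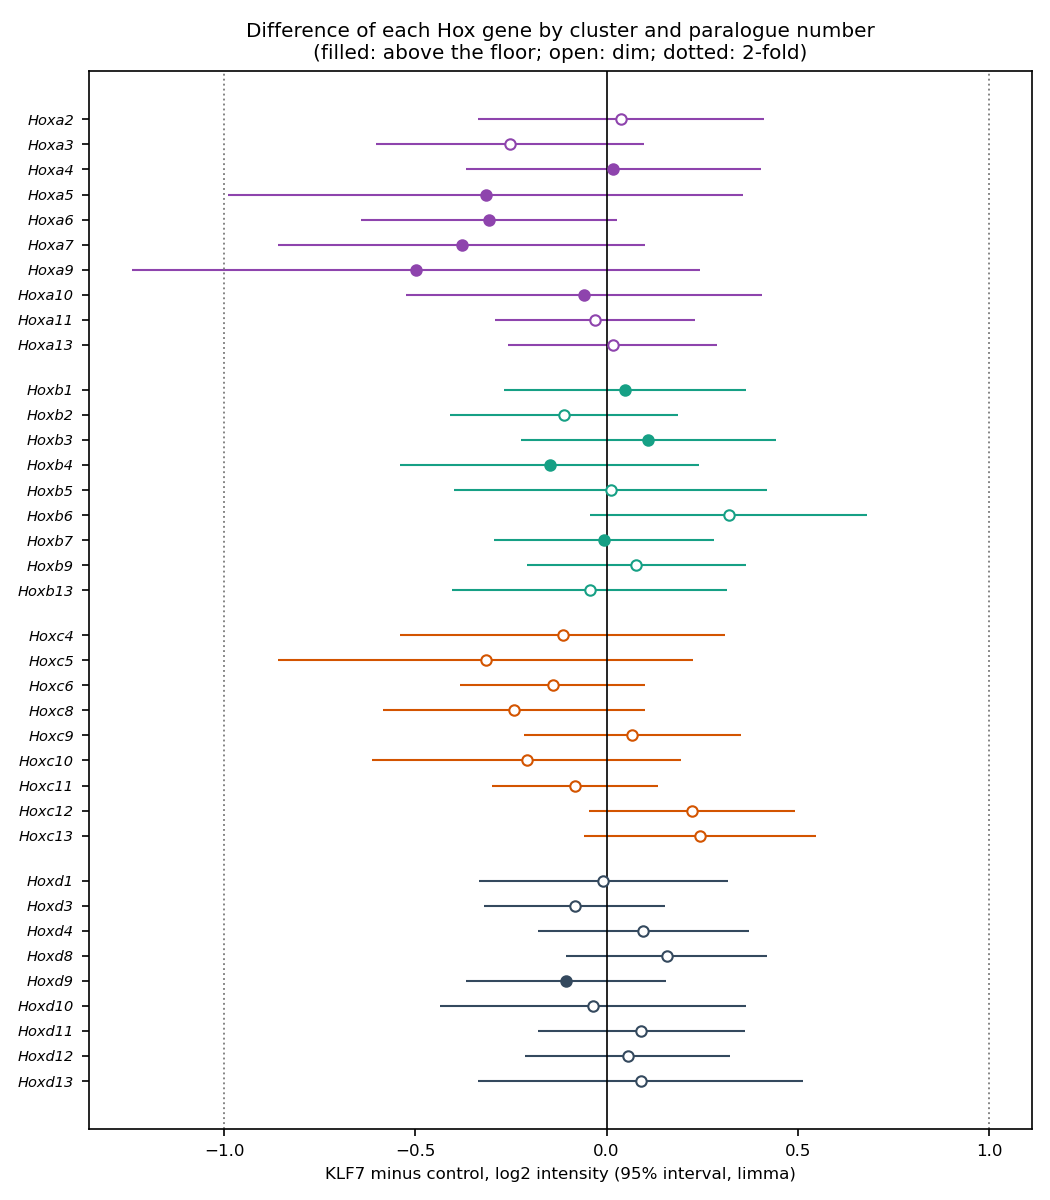
Difference of each Hox gene between 4 KLF7 and 4 control arrays (x axis, log2 intensity, with the 95% interval from limma), in the order of cluster and paralogue number (y axis); filled points are above the floor, open points are dim and dotted lines mark a 2-fold change. The interval of Hoxa9, from -1.24 to 0.24, is the only 1 of 37 that crosses a dotted line, and every interval holds 0.

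The Hoxa genes of the middle of the cluster had the lowest unadjusted p among the Hox genes above the floor. Hoxa6, Hoxa7, Hoxa9 and Hoxa5 each had a lower mean on the KLF7 arrays, and none passed the test. Their promoters are shown for 3 of them because KLF factors bind CACCC boxes and GC boxes. The windows run from 250 bases before to 50 bases after the RefSeq start, 5′ to 3′, and the capitals mark the letters CACCC or CCGCCC on either strand.
Hoxa6, GRCm38.p6 chr6:52208623-52208922, minus strand: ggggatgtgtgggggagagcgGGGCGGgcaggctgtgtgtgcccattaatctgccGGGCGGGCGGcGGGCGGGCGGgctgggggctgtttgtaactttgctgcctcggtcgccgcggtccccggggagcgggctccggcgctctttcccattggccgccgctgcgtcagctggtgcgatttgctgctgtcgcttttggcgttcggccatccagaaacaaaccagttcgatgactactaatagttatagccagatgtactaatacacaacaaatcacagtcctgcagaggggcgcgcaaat
Hoxa7, GRCm38.p6 chr6:52218524-52218823, minus strand: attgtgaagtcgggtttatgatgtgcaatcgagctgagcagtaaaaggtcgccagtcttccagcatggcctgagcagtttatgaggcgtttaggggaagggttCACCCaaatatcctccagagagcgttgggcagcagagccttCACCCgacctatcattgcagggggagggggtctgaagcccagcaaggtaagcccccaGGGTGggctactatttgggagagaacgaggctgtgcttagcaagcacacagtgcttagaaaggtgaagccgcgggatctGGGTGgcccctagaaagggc
Hoxa9, GRCm38.p6 chr6:52227321-52227620, minus strand: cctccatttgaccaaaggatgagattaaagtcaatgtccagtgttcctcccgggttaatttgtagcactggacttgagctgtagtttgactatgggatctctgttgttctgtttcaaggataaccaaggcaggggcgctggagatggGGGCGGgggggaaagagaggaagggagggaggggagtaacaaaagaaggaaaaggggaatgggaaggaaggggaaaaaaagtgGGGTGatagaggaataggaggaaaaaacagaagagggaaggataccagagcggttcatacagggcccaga
The Hoxa6 window held 0 matches to CACCC and 5 to CCGCCC, overlapping matches counted. The Hoxa7 window held 4 to CACCC and 0 to CCGCCC, and the Hoxa9 window held 1 of each. Of the 23 windows of 21 Hox genes that the table holds, 65.2% had CACCC and 39.1% had CCGCCC. Over all 32851 windows of 300 bases the shares were 57.5% and 35.7%, so a match was common everywhere. A match is a description of these letters and not a site.

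Hoxa9 encodes a regulator of stem cell expansion that, when overexpressed, drives myeloid leukaemia. Its probe set, 10544788, read 6.24, 6.98, 5.87 and 7.40 on KLF7 arrays 1 to 4 and 6.89, 6.75, 7.11 and 7.74 on control arrays 1 to 4. KLF7 3 and KLF7 1 were the lowest of the 8 and control 4 the highest, and the groups overlapped. The difference was -0.50 (SE 0.34, 1.41-fold lower), with a 95% interval of -1.24 to 0.24, a limma adjusted p of 0.789 and an exact two-sided permutation p of 0.257. The SDs within the groups, 0.69 for KLF7 and 0.44 for control, were about the size of the difference itself. Without KLF7 3 the difference was -0.25, and without KLF7 4 it was -0.76.

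Hoxa7 lies next to Hoxa9 and is another gene of early progenitors. Its probe set, 10544779, read 5.64, 6.06, 5.55 and 6.28 on the KLF7 arrays and 6.12, 6.38, 5.88 and 6.67 on the control arrays, in the order of the array numbers. The 2 lowest values were KLF7 arrays and the 2 highest were control arrays, with the other 4 mixed. The difference was -0.38 (SE 0.22, 1.30-fold lower), with an interval of -0.86 to 0.10 and a limma adjusted p of 0.730. It was -0.24 without control 4.

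Hoxa6 had the smallest p of the 37. Its probe set, 10544774, read 5.56, 5.36, 5.38 and 5.54 on the KLF7 arrays and 5.64, 6.13, 5.53 and 5.77 on the control arrays. KLF7 1 and KLF7 4 were above control 3 by a small margin, and every other KLF7 value was below every control value. The difference was -0.31 (SE 0.15, 1.24-fold lower), with an interval of -0.64 to 0.03 and an exact two-sided permutation p of 0.0857, where 0.0286 is the smallest p that 4 against 4 arrays allow. The control 2 array was the highest, and without it the difference was -0.19.

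Hoxa5, a gene also used in erythroid and lung development, read 5.38, 5.20, 5.02 and 5.70 on the KLF7 arrays and 5.70, 4.80, 5.57 and 6.50 on the control arrays. Control 2 was the lowest of the 8 arrays and control 4 the highest, so the control arrays enclosed all KLF7 arrays. Its difference was -0.32 (SE 0.30), with an interval of -0.99 to 0.36. Without control 4 the difference was -0.030, and without control 2 it was -0.60.

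Hoxa10, a neighbour of Hoxa9 that is used in the same progenitors, had a difference near 0. It read 4.88, 5.37, 4.91 and 5.61 on the KLF7 arrays and 5.05, 5.26, 4.99 and 5.71 on the control arrays. The array values of both groups interleaved. The difference was -0.058 (SE 0.21), with an interval of -0.52 to 0.41, and it was 0.095 without control 4. Hoxa4, the remaining Hoxa gene above the floor, ran from 5.82 to 6.28 on the KLF7 arrays and from 5.69 to 6.31 on the control arrays, with a difference of 0.018 (SE 0.17).

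**Figure D2:**
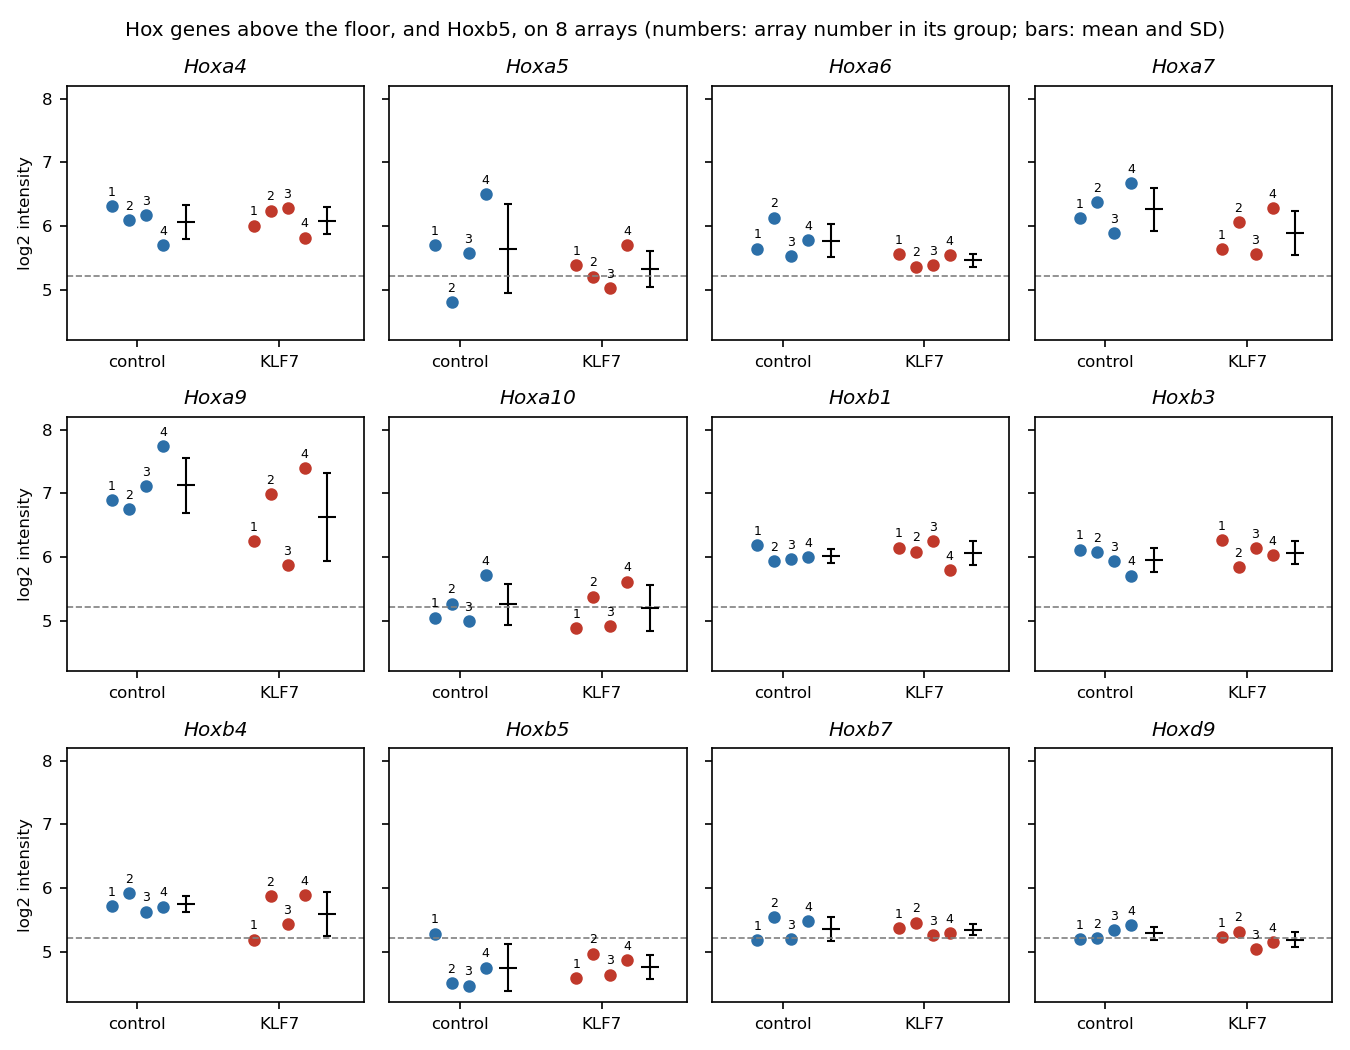
Log2 intensity (y axis) on the 4 control and 4 KLF7 arrays (x axis, points numbered by array) of the 11 Hox genes above the floor and of Hoxb5; the bars are mean and SD and the dashed line is the floor at 5.22. Groups overlap in every panel, and in the panels of Hoxa5, Hoxa7, Hoxa9 and Hoxa10 the array numbered 4 is the highest point of both groups.

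Hoxb1, Hoxb3 and Hoxb7 showed differences smaller than the SD within either group. The difference of Hoxb4 was smaller than its SD on the KLF7 arrays (0.34) but larger than that on the control arrays (0.13). Hoxb4, which expands stem cells when overexpressed, read 5.19, 5.87, 5.43 and 5.89 on the KLF7 arrays and 5.72, 5.92, 5.62 and 5.70 on the control arrays. KLF7 1 and KLF7 3 were below all control arrays and the other KLF7 arrays were among them. The difference was -0.15 (SE 0.18), with an interval of -0.54 to 0.24, and it was -0.014 without KLF7 1.

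Hoxb3, a paralogue used in early haematopoietic cells, read 6.26, 5.84, 6.13 and 6.02 on the KLF7 arrays and 6.12, 6.07, 5.93 and 5.70 on the control arrays. The difference was 0.11 (SE 0.15), with an interval of -0.23 to 0.44. It was 0.024 without control 4 and 0.18 without KLF7 2. Hoxb1, best known from hindbrain patterning, read 6.14, 6.08, 6.24 and 5.80 on the KLF7 arrays and 6.18, 5.93, 5.97 and 5.99 on the control arrays. Its KLF7 arrays included both the highest and the lowest value, and the difference was 0.048 (SE 0.14). Hoxb7 ran from 5.26 to 5.46 on the KLF7 arrays, inside the control range of 5.18 to 5.54, with a difference of -0.0071 (SE 0.13).

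Hoxb5, a marker of long-term stem cells, was dim. It read 4.58, 4.96, 4.63 and 4.86 on the KLF7 arrays and 5.28, 4.50, 4.47 and 4.75 on the control arrays. Only control 1 was above the floor, and the difference was 0.011 (SE 0.18), with an interval of -0.40 to 0.42. Hoxb6, also dim, ran from 3.96 to 4.71 on the KLF7 arrays and from 3.80 to 4.21 on the control arrays. Its difference of 0.32 (SE 0.16) was the highest of the 37, with a limma adjusted p of 0.679. It was the dim Hox gene with the smallest p, and next came Hoxc12 (0.22, SE 0.12), Hoxc13 (0.24, SE 0.14), Hoxa3 (-0.25, SE 0.16) and Hoxc8 (-0.24, SE 0.15).

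Hoxc and Hoxd genes, which pattern limbs, trunk and skin and are used little in stem cells of the marrow, gave signals near background. The 9 Hoxc differences ran from -0.32 (Hoxc5) to 0.24 (Hoxc13) and the 9 Hoxd differences from -0.11 (Hoxd9) to 0.16 (Hoxd8). Hoxd9 read 5.23, 5.31, 5.04 and 5.15 on the KLF7 arrays and 5.20, 5.21, 5.33 and 5.41 on the control arrays, values on either side of the floor. Its difference had an SE of 0.12 and an interval of -0.37 to 0.16, and was -0.057 without KLF7 3.

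By cluster, 7 of 10 Hoxa genes averaged lower with KLF7. The median difference of the cluster was -0.16 (-0.26 to -0.068 when 1 array was left out). In the Hoxb cluster 4 of 9 had a lower mean (median 0.011), in the Hoxc cluster 6 of 9 (median -0.11) and in the Hoxd cluster 4 of 9 (median 0.055). When 1 array was left out the Hoxc median ran from -0.20 to -0.050. The Hoxd median was then -0.034 without control 4 and -0.020 without KLF7 1, and up to 0.095 otherwise. Over all genes 9898 of 19938 had a lower mean. Among the 6 Hoxa genes above the floor 5 averaged lower, and their median was -0.31. Among the 26 dim Hox genes 13 were higher, 13 were lower and the median was 0.0010. The median of the Hoxb cluster was 0.10 without KLF7 4 or without control 1, and -0.051 without control 3. Genes of a cluster share neighbours and sequence and are not replicates of each other, so these counts carry no test.

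By paralogue number, the median difference was -0.0085 for the 11 genes numbered 1 to 4, -0.19 for the 10 numbered 5 to 8 and -0.0070 for the 16 numbered 9 to 13. In some groups of the same number the differences lay on both sides of 0, and no difference between paralogues was tested. In group 9 Hoxa9 was at -0.50, Hoxd9 at -0.11, Hoxc9 at 0.067 and Hoxb9 at 0.077. In group 6 Hoxa6 was at -0.31, Hoxc6 at -0.14 and Hoxb6 at 0.32, the last 2 of them dim. In group 7 Hoxa7 was at -0.38 and Hoxb7 at -0.0071, both above the floor. In group 10 all 3 measured genes averaged lower (-0.21 to -0.035), and in group 12 both averaged higher (0.055 and 0.22). The sources used here do not say whether probes of close paralogues read each other's transcripts.

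Several Hoxa genes varied between arrays of the same group as much as between the groups, or more. The arrays numbered 4 were the highest of both groups for Hoxa3, Hoxa5, Hoxa7, Hoxa9, Hoxa10 and Hoxb2. That is 16.2% of the 37 Hox genes, near the 18.9% of all genes for which the same holds. Hoxa5, Hoxa7, Hoxa9 and Hoxa10 among them make 4 of the 11 Hox genes above the floor. The like share of all genes above the floor was not taken. KLF7 4 lay above the mean of the other KLF7 arrays by 1.03 for Hoxa9, 0.56 for Hoxa10, 0.53 for Hoxa7 and 0.49 for Hoxa5. Control 4 lay above the other control arrays by 0.82, 0.61, 0.54 and 1.15 for the same genes. The arrays numbered 4 were the lowest of both groups for Hoxa4, Hoxb9, Hoxb13, Hoxc4, Hoxd1 and Hoxd10, all but Hoxa4 dim. That is 16.2% of the Hox genes again, beside 18.5% of all genes.

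Marker genes also differed on those arrays. The mean of 6 mast cell and basophil markers was 6.47 on KLF7 4 and 6.21 on control 4, against 8.99 to 10.46 on the other 6 arrays. The mean of 10 granulocyte markers was also lowest on these arrays, at 7.71 and 7.60, and highest on the arrays numbered 3, at 10.25 on each. On the arrays numbered 3 Hoxa7 was the lowest of both groups, and Hoxa9 was the lowest of the KLF7 group (5.87) but not of the control group (7.11). Hoxa7 alone among the Hox genes was lowest of both groups there, a share of 2.70%, below the 6.14% of all genes. Kit, the receptor used in the sort, was also lowest on the arrays numbered 4, at 7.85 and 8.33 against 9.57 to 10.52 on the others. The other KLS progenitor markers did not all follow Kit. Gata2 was likewise lowest of both groups on the arrays numbered 4, whereas Cd34, Flt3, Meis1 and Slamf1 were highest of both groups there. Procr and Tal1 were neither highest nor lowest there. The mean of 4 megakaryocyte markers was highest on the arrays numbered 4, at 8.73 and 9.21. The part of these cell types in the Hox levels was not tested. With both arrays numbered 4 left out, the difference between the groups was -0.55 for Hoxa9, -0.38 for Hoxa7 and -0.15 for Hoxa5, and 0 Hox genes passed the adjusted test.

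**Figure D3:**
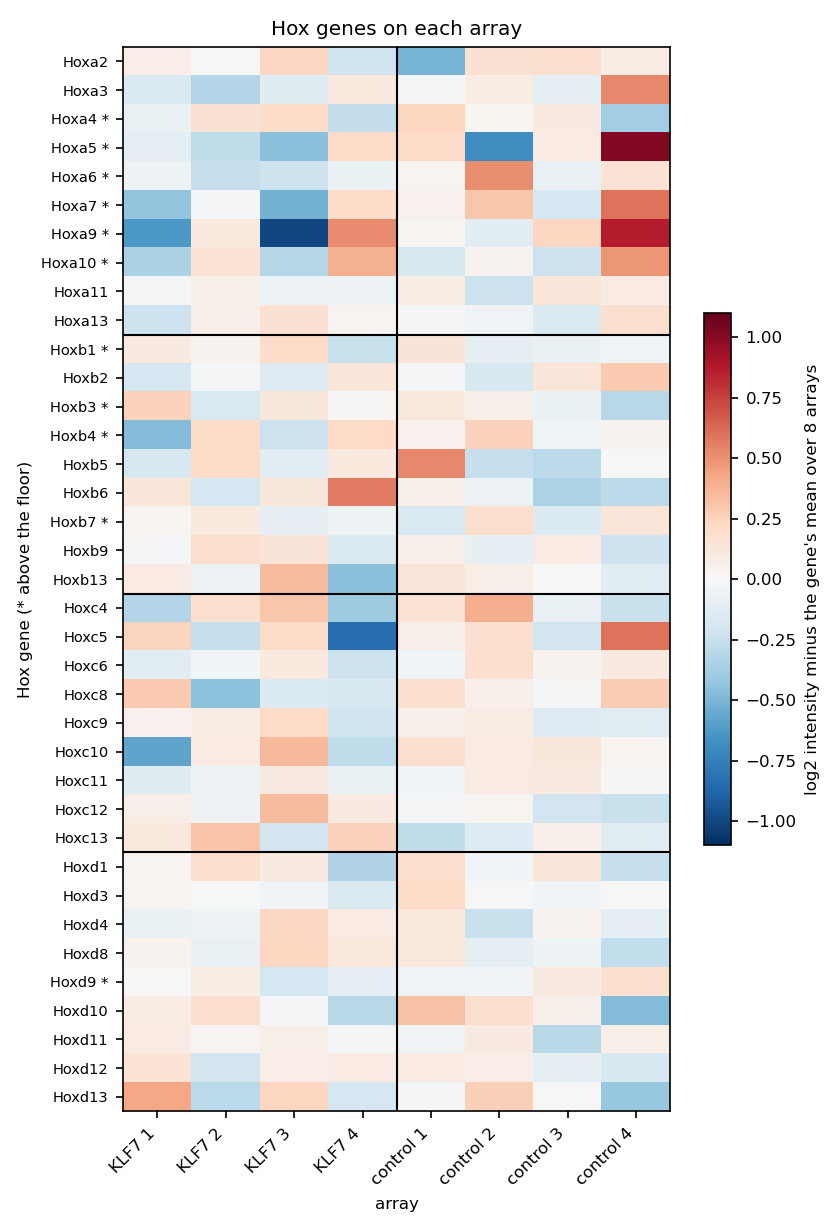
Log2 intensity of each Hox gene on each array minus the mean of that gene over the 8 arrays (colour scale; rows are the 37 genes in cluster order, those above the floor starred, and columns are the arrays, with a line between the groups). Control 4 for Hoxa5 (6.50 on the log2 scale) and KLF7 3 for Hoxa9 (5.87) lie farthest from their gene's mean, and the colours within a group vary as much as across the line.

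The cofactors of Hox proteins also gave 0 calls. Most genes of this and the following lists were above the floor, unlike the Hox genes. Of 12486 genes above it 764 were higher and 591 lower at a limma unadjusted p under 0.05. Of 8 measured genes of the TALE family, homeodomain proteins that bind DNA with Hox proteins, 5 had a higher and 3 a lower mean, with a median difference of 0.028 and 0 at an unadjusted p under 0.05, beside 8.21% of all genes. Meis1, the main partner of HOXA9 in stem cells, read 8.40, 8.11, 8.05 and 8.60 on the KLF7 arrays and 7.86, 8.11, 7.68 and 8.78 on the control arrays. Control arrays held both its highest and its lowest value, and the difference was 0.18 (SE 0.25). It was 0.41 without control 4, 0.041 without control 3 and 0.079 without KLF7 4. Pbx3 was at -0.30 (SE 0.16), Pbx4 at -0.30 (SE 0.18) and Meis3 at 0.23 (SE 0.19). Pbx3 was -0.19 without control 4, Pbx4 was -0.15 without KLF7 1, and Meis3 was 0.13 without control 4 and 0.35 without control 1.

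Regulators of the clusters fall into activators, such as the MLL histone methyltransferase complex and CDX factors, and repressors of the Polycomb group. Of 16 activators 10 averaged lower with KLF7, and the median of the list was -0.12. At an unadjusted p under 0.05 there was 1, near the 8.21% of all genes. It was Rara, the retinoic acid receptor alpha gene, with a difference of 0.58 (SE 0.20, limma adjusted p 0.454). Its groups did not overlap, as for 5.22% of all genes. Kmt2a, which encodes MLL itself, was at -0.12 (SE 0.18, and -0.056 without KLF7 2), Ash2l at -0.33 (SE 0.19), Mllt1 at -0.31 (SE 0.16) and Mllt3 at -0.26 (SE 0.16). Of 16 Polycomb genes 11 averaged lower, by a median of -0.13 over the list.

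Pcgf2, which encodes the Polycomb ring finger protein MEL18, was the 1 Polycomb gene of 16 at an unadjusted p under 0.05, a share near the 8.21% of all genes. It read 5.92, 6.45, 6.29 and 6.12 on the KLF7 arrays and 6.76, 6.78, 7.01 and 7.09 on the control arrays. Every KLF7 array was below every control array, and 5.22% of all genes had groups that did not overlap. The difference was -0.72 (SE 0.16), and it did not pass the test over all genes (limma adjusted p 0.323). Its relative Bmi1 was at -0.42 (SE 0.20), with groups that overlapped, Ring1 at -0.25 (SE 0.17) and Phc3 at -0.26 (SE 0.19). Bmi1 was -0.26 without KLF7 1, and Phc3 was -0.17 without control 3.

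Genes reported as targets of Hoxa9 and Meis1 in blood cells were the pathway list with the most members at a small p, though none passed the adjusted test. Of 14 measured, 9 averaged lower, the median difference was -0.22, and 5 had an unadjusted p under 0.05, beside 8.21% of all genes. Above the floor were 13 of the 14, and there 764 of 12486 genes were higher and 591 lower at that p. Lower were Myb, a transcription factor of progenitor growth (-0.91, SE 0.24), Erg, a stem cell transcription factor (-0.66, SE 0.25, and -0.40 without KLF7 1), and Cdk6, a G1 kinase (-0.57, SE 0.22). Sox4 was the fourth lower gene (-0.94, SE 0.38), named after its values were seen. Id2, an inhibitor of basic helix-loop-helix factors that is used in lymphoid and dendritic cells, was higher (0.87, SE 0.28). The limma adjusted p of these 5 ran from 0.356 (Myb) to 0.541 (Sox4). The list was not split by the direction reported for each target. Monocyte and dendritic cell markers averaged higher on the same KLF7 arrays, as given above, and their part in these values was not tested.

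**Figure D4:**
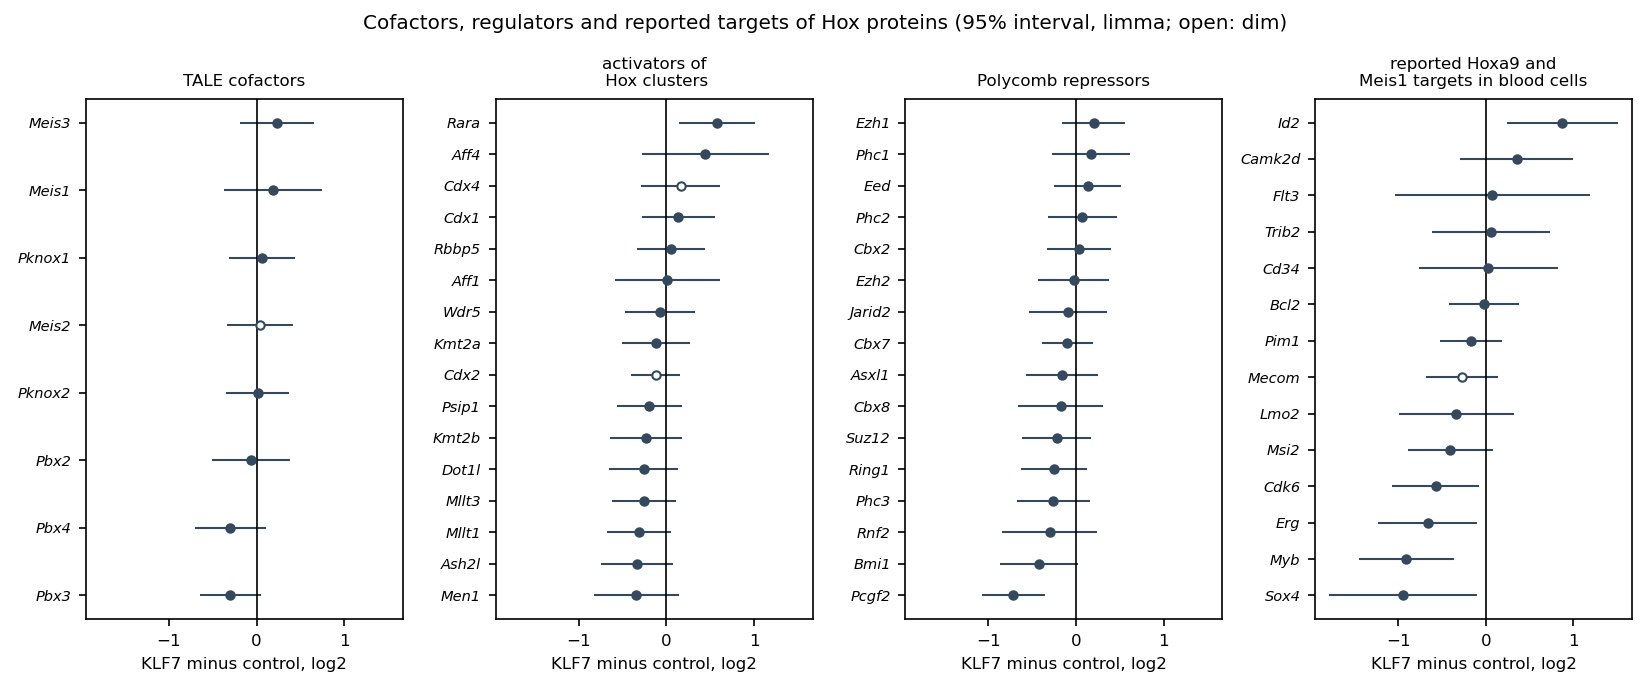
Difference between 4 KLF7 and 4 control arrays (x axis, log2 intensity, with the 95% interval from limma) of the measured TALE cofactors, activators of the clusters, Polycomb repressors and reported Hoxa9 and Meis1 targets (y axis, ordered by difference; open points are dim). Pcgf2 at -0.72 and Myb at -0.91 lie farthest from 0 relative to their intervals, and no gene passed the test over all genes.

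The clusters also hold miRNA genes, and their mature sequences are shown because miR-10 and miR-196 are known to target Hox transcripts. Capitals mark the seed, bases 2 to 8. The 5p arms shown for miR-10a and miR-10b share the seed ACCCUGU, and those for miR-196a and miR-196b share AGGUAGU.
mmu-miR-10a-5p: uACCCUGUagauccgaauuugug
mmu-miR-10b-5p: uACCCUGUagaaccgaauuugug
mmu-miR-196a-5p: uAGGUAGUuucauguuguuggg
mmu-miR-196b-5p: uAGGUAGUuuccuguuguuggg
The sequences are from RefSeq, as are the promoters (GRCm38.p6). Probe sets with the gene symbols of these miRNAs were dim for Mir10a, Mir10b, Mir196a-1 and Mir196a-2. Mir196b, which lies between Hoxa9 and Hoxa10, stood just above the floor of 5.22, with a difference of -0.15 (SE 0.18). Its mean was 5.20 on the KLF7 arrays and 5.36 on the control arrays. KLF7 1 (4.95), KLF7 4 (5.06) and control 1 (5.04) were below the floor. Mir10b had a difference of 0.26 (SE 0.16), which was 0.11 without KLF7 4 and 0.057 without both arrays numbered 4. The sources used here do not say whether these probe sets read the hairpin, the mature miRNA or a longer transcript.

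Of 19 measured genes inside or beside the clusters, those miRNAs included, 9 had a higher and 10 a lower mean, the median was -0.0095 and 0 had an unadjusted p under 0.05, beside 8.21% of all genes. Skap2, an adaptor protein gene beside the Hoxa cluster, was at 0.51 (SE 0.25). Cbx5, which encodes heterochromatin protein HP1 alpha near the Hoxc cluster, was at -0.36 (SE 0.17), and Lnpk beside the Hoxd cluster was at 0.29 (SE 0.17). Hottip, a noncoding RNA at the end of the Hoxa cluster, was dim (0.12, SE 0.16, named after its values were seen).

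Of 13 measured homeobox genes outside the clusters 3 had an unadjusted p under 0.05, beside 8.21% of all genes, and none passed the adjusted test. Zfhx3 averaged higher on the KLF7 arrays (0.48, SE 0.16). Satb1, a chromatin organiser of lymphoid progenitors (-0.44, SE 0.16), and Cux1, a gene lost in myeloid malignancy (-0.44, SE 0.19), had lower means. Groups did not overlap for these 3, beside 5.22% of all genes. Hlx was at 0.44 (SE 0.24, and 0.29 without KLF7 1). The limma adjusted p of the 4 genes ran from 0.442 (Zfhx3) to 0.709 (Hlx), and 10 of the 13 averaged lower, the median difference being -0.15.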

How the data were processed

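The sorted cells were profiled on 8 expression arrays of 1 colour. The values deposited by the authors are probe set intensities on a linear scale. The submitters' processing notes name Affymetrix Expression Console and RMA, a method that corrects background, normalises between arrays and summarises probes. The sources used here give no version and no genome build.

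Log2 was taken. Of 35554 probe sets 21789 carried 1 symbol, and the one with the highest mean was kept per gene. A linear model with a group term was fitted to all 19938 genes, unfiltered, with limma 3.58.1 under R 4.3.3 (lmFit, then eBayes with trend). The two-sided p-values were adjusted over all genes (Benjamini-Hochberg). The exact permutation test used 70 splits. The limma script was tested on simulated data.

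Members and gene lists were chosen with earlier results of these data known. Values on every array are given for Hox genes at an unadjusted p under 0.05, for up to 8 more above the floor with the smallest p, and always for Hoxa5, Hoxa7, Hoxa9, Hoxa10, Hoxb4 and Hoxb5. Of other lists up to 4 members by smallest p are named, and Meis1 and Kmt2a always. Alternatives changed arrays, normalization, prior, filter, probe sets and floor. Promoter windows matched 21 of 37 members. Protein sequences were not used here. Figures were drawn with matplotlib 3.10.9.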

Additional observations from a re-analysis of the deposited data

Results flagged for a closer look

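Each Hox gene was examined in both groups of 4 arrays for a sample far from the other 3 (Dixon's ratio of gap to range at its 95% critical value). Of 74 groups of values 3 stood out, where chance gives about 1 in 20, and all 3 were control arrays of dim genes. Control 1 was low for Hoxa2 (3.72, against 4.31 to 4.41 on the other control arrays). Control 2 was low for Hoxa11 (4.53, against 4.85 to 4.90). Control 1 was high for Hoxd3 (4.71, against 4.47 to 4.50).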

How the results depend on the processing

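No Hox gene passed the adjusted test in the 19 alternative settings of the test, 8 of which left out 1 array each. The number of Hox genes at an unadjusted p under 0.05 was 0 in each direction and 0 to 1 higher and 0 to 2 lower when 1 array was left out. It was 1 higher without both arrays numbered 2, 2 lower (Hoxa7 and Hoxa9) with the replicate block and 3 lower (Hoxa3, Hoxa7 and Hoxa9) when the arrays numbered 4 entered the fit as a batch. The deviations of same-numbered arrays correlated at 0.35, -0.13, 0.36 and 0.70 for numbers 1 to 4. The KLF7 and control arrays numbered 1, 3 and 4 were each other's closest match, and those numbered 2 were not. No label says that a number marks a shared source, so the numbers were not taken as pairs. The replicate block gave 90 calls over all genes, 0 of them Hox genes. The batch gave 26 calls, again with 0 Hox genes. The smallest adjusted p of a Hox gene in any setting was 0.225, that of Hoxa7 with the replicate block.

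Hoxa5, Hoxa6, Hoxa7, Hoxa9, Hoxb4 and Hoxd9 had a lower mean on the KLF7 arrays in every setting in which they were fitted. The sign of differences near 0 turned. Hoxa10 ran from -0.20 to 0.095 when 1 array was left out and was 0.046 with array weights. Hoxb1 ran from -0.011 to 0.14 when 1 array was left out. Hoxb5 ran from -0.084 to 0.19 when 1 array was left out, and was -0.024 without both arrays numbered 4, -0.14 without both numbered 2 and -0.0032 after quantile normalization was applied again. The median of the Hoxb cluster ran from -0.051 to 0.10 when 1 array was left out, and that of the Hoxd cluster from -0.034 to 0.095. The Hoxd median was also -0.034 with array weights. The cause of these turns was not tested. The filter that left out the dimmer 50% of genes kept 5 Hox genes, so no median was taken there. Of the 37 Hox genes 7 were dim with the floor at the 75th percentile of olfactory receptor genes and 32 with the floor at the median of all genes. Signal over background limits what can be said of the 26 dim genes. Of the 6 B cell markers 3 were above the floor of 5.22, so a level above it does not by itself show expression.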
